A study of Homo sapiens with 4 samples.

Results

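The heat shock proteins and the J-domain cochaperones were taken as every gene whose symbol belonged to the HSPA, HSPB, HSPD, HSPE, HSPH or HSP90 series or to the numbered DNAJA, DNAJB or DNAJC series. The rule found 72 genes among the 50229 named symbols of the table, and they occupied 71 entries because HSPA1A and HSPA1B shared 1. Where a symbol stood in several entries, the one with the highest mean count was used. The rule thus used names and a mean over all libraries, and not the comparison between groups. It was set, however, with earlier results of these data known.

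RNA-seq libraries were made from K562-U2AF1_S34F cells, a line of the human erythroleukemia cell line K562 that overexpresses U2AF1 with the S34F substitution. The 2 control libraries came from cells given DMSO, the solvent, and the 2 treated libraries from cells given SF1-8 at 30 μM for 48 h, a small molecule that the study developed against the binding of U2AF1 to its splicing partner U2AF2. Every library carried the overexpressed mutant, so no comparison with cells lacking it could be made, and 1 dose and 1 time were available. Nothing in the labels says that the libraries of a group came from separate cultures, so p-values measure only the spread between these libraries, which may be technical.

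Chaperones keep other proteins from aggregating and help them to fold, and HSP70 is the hub of the network. J-domain proteins deliver substrates to HSP70 and make it hydrolyse ATP, the HSP110 proteins and other exchange factors release ADP from it, and HSP90 takes over clients in a later step of folding. Loss of protein folding in the cytosol raises the inducible members through the heat shock factor HSF1, whereas loss of folding in the endoplasmic reticulum (ER) raises another set that includes HSPA5 and HSP90B1.

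Named entries held between 45331271 and 67311734 estimated counts per library, with DMSO 1 the shallowest. The U2AF1 entry, which does not separate the mutant from the normal copy, lay between 11.4 and 12.0 FPKM (fragments scaled by the length of the transcript in kilobases and by the depth of the library). The 8 entries that hold the K562 markers summed to between 260 and 286 FPKM. The 7 stromal markers other than VIM summed to 10.2 and 4.87 FPKM in DMSO and to 2.36 and 0.660 FPKM with SF1-8, and of the defining ones LUM was at 0 in both treated libraries and DCN in 1 of them. VIM, far more abundant than the rest of that list, did not share the fall. It was at 177 and 215 FPKM in DMSO and at 163 and 225 FPKM with SF1-8, and its groups overlapped. The myeloid list (4 markers, of which MPO was at 0 throughout) summed to at most 0.574 FPKM and the lymphoid list (3 markers) to at most 0.653 FPKM in any library. The paper lists COL1A1, COL1A2, COL3A1 and COL6A1, which are in the stromal list, among the genes down-regulated with SF1-8. Which cells these transcripts came from was not tested, nor was any part they have in the results below.

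The elements through which both stress pathways act were read in the 250 bases before the RefSeq starts (GRCh38.p14) of the 63 chaperone genes that had a promoter in that table. A heat shock element of 3 units, GAANNTTCNNGAA on either strand, was found for 6 of them, namely DNAJB6, HSP90AA1, HSP90AB1, HSPA6, HSPA8 and HSPD1, and in 0.441% of all 35116 promoters. The ER stress element, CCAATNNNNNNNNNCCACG on either strand, was found for HSPA5 and HSP90B1 and in 0.0740% of all promoters. Chaperones were counted as genes, for which any matching promoter was enough, whereas the shares are of promoters. The units are thus unlike. The stretches of 5 of these genes are shown 5′ to 3′ in the sense of the gene, because their mRNAs were among the most abundant and most precisely measured of the set, with the matched letters in capitals.
HSP90AB1, heat shock elements, chr6:44247693-44247942, + strand: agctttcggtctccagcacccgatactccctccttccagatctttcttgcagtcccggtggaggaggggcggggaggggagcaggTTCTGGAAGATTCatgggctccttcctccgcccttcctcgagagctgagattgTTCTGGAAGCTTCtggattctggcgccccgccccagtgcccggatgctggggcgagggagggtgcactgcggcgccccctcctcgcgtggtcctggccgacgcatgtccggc
HSPA8, heat shock elements, chr11:123062137-123062386, - strand: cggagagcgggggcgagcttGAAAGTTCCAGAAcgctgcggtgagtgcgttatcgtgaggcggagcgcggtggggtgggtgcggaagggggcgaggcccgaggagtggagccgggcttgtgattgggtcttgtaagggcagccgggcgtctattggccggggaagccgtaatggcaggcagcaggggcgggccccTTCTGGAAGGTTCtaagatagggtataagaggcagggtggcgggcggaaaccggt
HSPD1, overlapping heat shock elements, chr2:197499841-197500090, - strand: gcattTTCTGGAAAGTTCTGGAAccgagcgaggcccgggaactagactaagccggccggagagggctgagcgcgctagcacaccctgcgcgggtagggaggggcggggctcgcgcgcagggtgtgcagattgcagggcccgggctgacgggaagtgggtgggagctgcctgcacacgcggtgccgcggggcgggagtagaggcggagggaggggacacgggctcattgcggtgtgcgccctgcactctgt
HSPA5, ER stress element, chr9:125241344-125241593, - strand: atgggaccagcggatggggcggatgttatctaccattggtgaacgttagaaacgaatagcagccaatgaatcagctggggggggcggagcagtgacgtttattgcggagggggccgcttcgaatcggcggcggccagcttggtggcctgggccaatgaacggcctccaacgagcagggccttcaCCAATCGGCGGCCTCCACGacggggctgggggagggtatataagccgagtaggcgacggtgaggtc
HSP90B1, ER stress elements, chr12:103930160-103930409, + strand: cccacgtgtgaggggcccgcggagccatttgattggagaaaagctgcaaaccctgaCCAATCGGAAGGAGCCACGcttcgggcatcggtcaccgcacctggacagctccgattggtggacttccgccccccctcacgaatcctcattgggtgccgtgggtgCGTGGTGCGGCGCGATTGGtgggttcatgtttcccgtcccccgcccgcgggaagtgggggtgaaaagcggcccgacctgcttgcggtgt
All but the HSPA5 stretch lay inside the entry as deposited, which began upstream of the RefSeq start used here. The 6 entries with a heat shock element had a median log2 fold change (SF1-8 against DMSO, from the fit described next) of 0.029, with a range of -0.23 to 0.19, and the 2 with an ER stress element had 0.063 and 0.070. A match of letters describes the window and shows no binding. Only exact matches in the 250 bases were taken, so genes without one are not shown to lack an element.

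The comparison asked whether the chaperone mRNAs differed between cells given SF1-8 and cells given DMSO. None of them passed the test, the quasi-likelihood F test of edgeR, adjusted by the Benjamini-Hochberg method over all 26167 tested entries. Of the 72 genes, 68 on 67 entries had enough counts to be tested, and DNAJB3, DNAJB8, HSPA12A and HSPA2 did not. At an adjusted p of 0.05, 0 of the 67 entries were called, against 11 (0.0420%) of all tested entries. At an unadjusted p of 0.05, 2 of the 67 (2.99%) passed, DNAJC21 and DNAJC16, against 4.33% of all. DESeq2 called 0 of them, against 0.623% of all, and limma on log2(FPKM + 1) called 0, against 0.00675% of all.

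The fitted log2 fold change was above 0 for 40 entries and below 0 for 27, beside 12657 and 13510 of all tested entries, whatever their level. Its median was 0.015, of a sign that other scalings turned, beside -0.011 over all tested entries, and its range ran from -1.08 (HSPB8) to 0.59 (DNAJC16). On CPM, counts scaled to library size with TMM factors (edgeR's trimmed mean of M-values), both treated libraries lay outside both control libraries for 22 of the 67 entries (32.8%), 14 above and 8 below, against 35.5% of all tested entries. The 95% interval of the fold change lay inside 1.5-fold either way for 40 of the 67 (59.7%), against 30.7% of all. Many low entries stand in that share, so abundant entries were also read alone. Among the 38 chaperone entries with a mean FPKM of at least 5, 33 (86.8%) had such an interval, against 81.2% of the 5765 entries at that level in the whole table. Their median size of log2 fold change was 0.047, against 0.077, and 0 of the 38 passed the unadjusted threshold, against 3.89%. That 0 depends on the level chosen, since DNAJC21 and DNAJC16 lay just under it, with means of 4.66 and 4.15 FPKM. Of the 48 chaperone entries with a mean of at least 1 FPKM, 2 passed the unadjusted threshold and 38 had an interval inside 1.5-fold. For the 29 entries under 5 FPKM the depth allowed less, and 7 had an interval inside 1.5-fold. The shares of all tested entries with a mean of at least 1 FPKM, or under 5 FPKM, were not computed. The counts at these levels thus have no background and are not read as a trait of the chaperones.

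**Figure D1:**
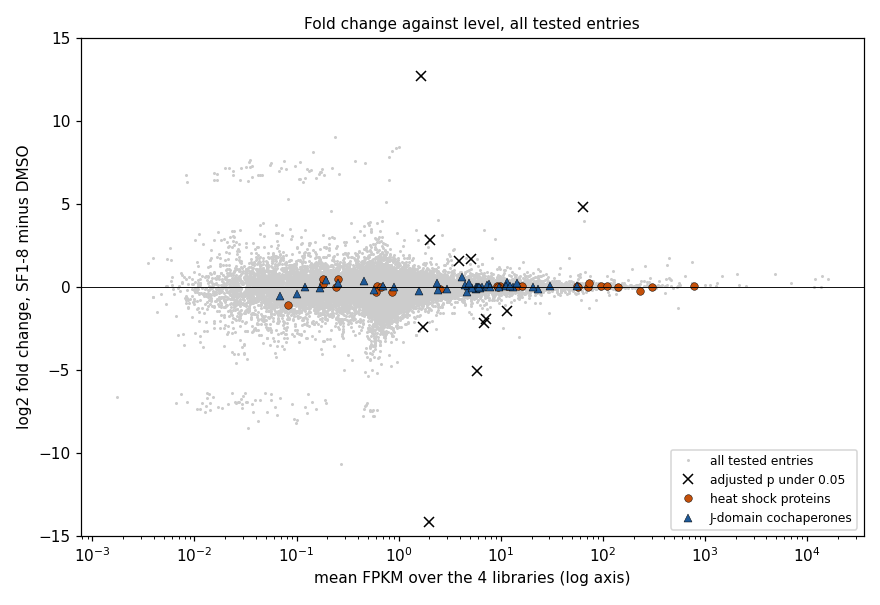
Log2 fold change (SF1-8 minus DMSO, y axis) against mean FPKM over the 4 libraries (x axis, log scale) for all 26167 tested entries (grey), with the 11 past an adjusted p of 0.05 as crosses, heat shock proteins as orange circles and J-domain cochaperones as blue triangles. The chaperone entries run along 0, between -1.08 and 0.59, and no cross is among them.

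By summed level the treated and control libraries overlapped. The 71 entries summed to 2337 and 2285 FPKM in DMSO and to 2213 and 2360 FPKM with SF1-8, and took between 1.22% and 1.36% of the counts of each library. HSP90AB1, HSPA8 and HSP90AA1 alone made up between 55.6% and 57.4% of that sum. The lowest and the highest sum were both from treated cells. Since these are bulk libraries, fewer expressing cells and less RNA per cell cannot be told apart in any of these values.

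**Figure D2:**
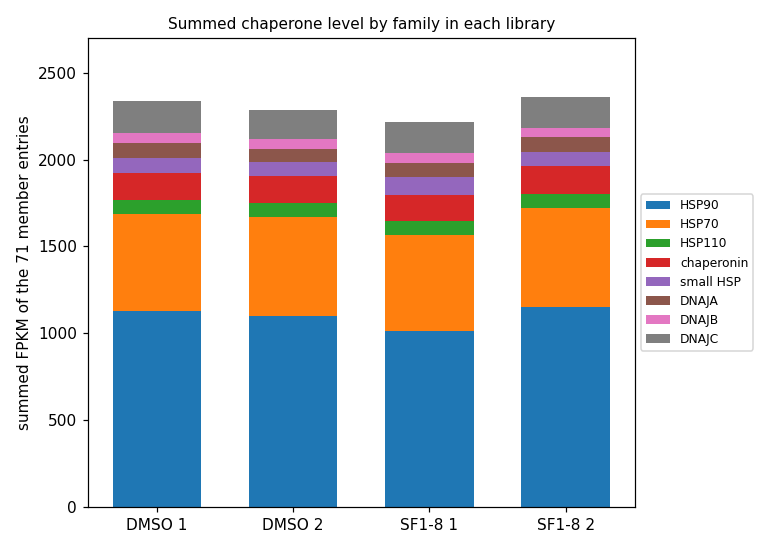
Summed FPKM of the 71 chaperone entries in each library (bars from 0, stacked by family). The 4 bars stand between 2213 and 2360 FPKM, and HSP90 and HSP70 form most of each.

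HSP90 was the most abundant family. HSP90AB1, the constitutive cytosolic HSP90, was at 767 and 769 FPKM in DMSO and at 761 and 792 FPKM with SF1-8. The groups overlapped, and its log2 fold change was 0.043 (SE 0.057, 95% interval -0.10 to 0.19). HSP90AA1 (chr14:102080742-102139699), the stress-inducible cytosolic form, was at 263 and 241 FPKM in DMSO and at 159 and 262 FPKM with SF1-8. The first treated library alone was low and the second stood with the controls, so the log2 fold change of -0.23 (SE 0.23, 95% interval -0.81 to 0.34) became 0.078 without that library and -0.63 without the other. The ratio of HSP90AB1 to HSP90AA1, computed from FPKM, was 2.91, 3.19 and 3.02 in the 3 other libraries and 4.78 in that one.

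Among the HSP70 proteins, HSPA8, the constitutive cytosolic form that also strips clathrin from vesicles, was at 312 and 297 FPKM in DMSO and at 310 and 292 FPKM with SF1-8. Both groups held 1 higher and 1 lower library and overlapped (log2 fold change 0.014, SE 0.059, 95% interval -0.14 to 0.17). The heat-inducible pair HSPA1A and HSPA1B shared an entry (chr6:31815543-31839761) that also names AL671762, SNHG32, SNORD48 and SNORD52, so the pair could not be read apart from one another or from these neighbours. That entry was at 54.1 and 90.4 FPKM in DMSO and at 55.8 and 83.8 FPKM with SF1-8. It thus differed within each group and not between them, with a log2 fold change of -0.033 (SE 0.32, 95% interval -0.84 to 0.77). HSPA6, a form that is nearly silent without stress, stayed between 0.569 and 0.655 FPKM in all libraries.

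Of the other HSP70 proteins outside the organelles, most were low. HSPA14, which works at the ribosome, was between 8.83 and 9.59 FPKM. HSPA12B had the highest fitted value of the family (log2 fold change 0.47, SE 0.44), at a level of at most 0.303 FPKM and with an interval of -0.65 to 1.60. That value was 0.071 without DMSO 1 and 1.06 without DMSO 2. The HSP110 exchange factors were measured closely, and all 3 had an interval inside 1.5-fold. HSPA4 was at 55.2 and 54.6 FPKM in DMSO and at 55.6 and 58.2 FPKM with SF1-8 (log2 fold change 0.077, SE 0.065). HSPH1, a partner of HSP70 in dissolving aggregates, ranged from 15.7 to 16.9 FPKM (0.031, SE 0.066).

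**Figure D3:**
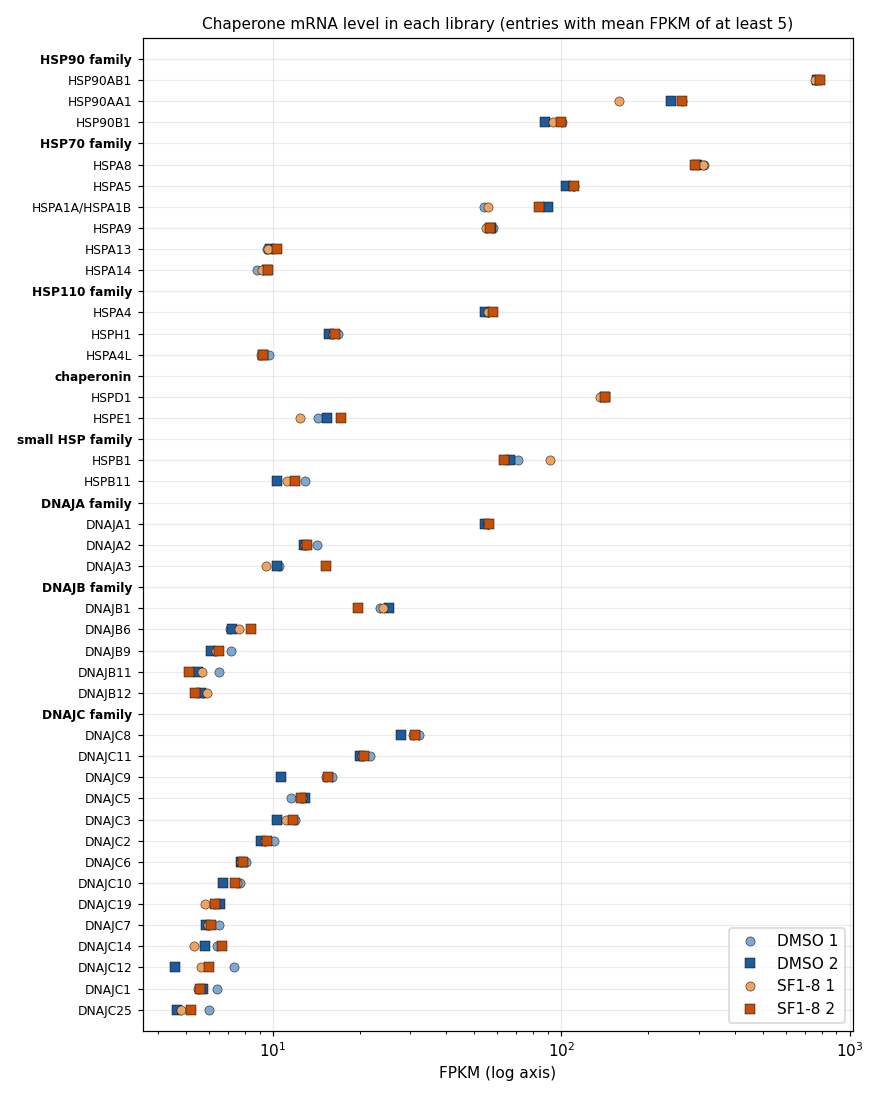
FPKM (x axis, log scale) of the 38 chaperone entries with a mean of at least 5 FPKM, by family (rows), in each library (blue for DMSO, orange for SF1-8, circles for replicate 1 and squares for replicate 2). The 4 points of most rows lie on one another, and HSP90AA1, HSPA1A/HSPA1B, HSPB1, DNAJA3, DNAJC9 and DNAJC12 are rows in which 1 or more libraries stand off.

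The small heat shock proteins, which hold unfolded proteins without ATP, were represented by 1 abundant gene. HSPB1 (chr7:76302673-76304292) was at 70.7 and 66.5 FPKM in DMSO and at 91.1 and 63.4 FPKM with SF1-8. The treated libraries were the highest and the lowest of the 4, and the log2 fold change of 0.20 (SE 0.18, 95% interval -0.25 to 0.66) became -0.091 without the first treated library. HSPB11, a protein of intraflagellar transport that carries the family's symbol, lay between 10.3 and 12.9 FPKM. The remaining 6 tested members had mean levels of at most 2.54 FPKM. HSPB8, which acts with BAG3 in the removal of aggregates, had 27 and 31 estimated counts in DMSO and 8 and 24 with SF1-8, so the largest fitted difference of the set (-1.08, SE 0.77, 95% interval -3.03 to 0.87) rested on few counts, and was -0.49 without the first treated library and -2.09 without the second. The deposited counts are no read numbers, since 4 and then 8 were their commonest values above 0. HSPB7 had a log2 fold change of 0.46 (SE 0.38) at or below 0.215 FPKM.

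In the mitochondrion, the chaperonin subunit HSPD1 was at 141 and 142 FPKM in DMSO and at 136 and 142 FPKM with SF1-8 (log2 fold change 0.0037, SE 0.063, 95% interval -0.16 to 0.17). Its lid HSPE1, in an entry shared with HSPE1-MOB4 and MOB4, was at 14.4 and 15.5 FPKM in DMSO and at 12.4 and 17.3 FPKM with SF1-8, with the treated libraries on both sides of the controls (0.019, SE 0.17). HSPA9, the HSP70 that pulls imported proteins into the matrix, lay between 54.7 and 58.1 FPKM (-0.022, SE 0.060). Its J-domain partner of the import motor DNAJC19 lay between 5.84 and 6.55 FPKM (-0.048, SE 0.11). DNAJC11, a J protein of the mitochondrial membranes, ranged from 20.1 to 21.7 FPKM (0.0056, SE 0.067).

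DNAJA3, the matrix J protein, was at 10.5 and 10.4 FPKM in DMSO and at 9.44 and 15.3 FPKM with SF1-8. The second treated library alone was high, and the log2 fold change of 0.27 (SE 0.22) became -0.11 without it. DNAJC15, an import cochaperone, had a log2 fold change of -0.46 (SE 0.41) at or below 0.147 FPKM, which ran from -0.77 to -0.13 without single libraries. Over the 9 mitochondrial entries, 6 fitted values were above 0 and 3 below, with a median of 0.0056.

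The ER chaperones lay close between the groups too. HSPA5, the ER HSP70 whose promoter is printed above, was at 111 and 104 FPKM in DMSO and at 110 and 111 FPKM with SF1-8 (log2 fold change 0.070, SE 0.057, 95% interval -0.076 to 0.22). HSP90B1, the ER HSP90, was at 101 and 88.0 FPKM in DMSO and at 93.4 and 100.1 FPKM with SF1-8 (0.063, SE 0.073, 95% interval -0.12 to 0.25). For both genes the second control library was the lowest. The ratio of HSPA5 to HSP90B1 in FPKM stayed between 1.10 and 1.18.

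The J-domain and HSP70 partners in the ER were lower in level. DNAJB9, an ER J protein induced by unfolded proteins, was at 7.19 and 6.09 FPKM in DMSO and at 6.36 and 6.52 FPKM with SF1-8 (log2 fold change -0.013, SE 0.12). DNAJB11, which binds nascent chains with HSPA5, lay between 5.13 and 6.52 FPKM (-0.12, SE 0.11). The paper lists it among genes whose transcript isoforms changed in pattern with SF1-8. A total per entry cannot show such a change. DNAJC3, a cochaperone of HSPA5, lay between 10.4 and 12.0 FPKM (0.059, SE 0.088). DNAJC10, a reductase of wrong disulfides, lay between 6.70 and 7.70 FPKM (0.079, SE 0.075), and HSPA13, a short HSP70, between 9.58 and 10.4 FPKM (0.076, SE 0.094). Of the 14 ER entries, 13 had an interval inside 1.5-fold, and the exception was DNAJC16.

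DNAJC16 (chr1:15526813-15592379), a membrane J protein of the ER, was at 2.86 and 3.82 FPKM in DMSO and at 5.10 and 4.83 FPKM with SF1-8. Both treated libraries were above both controls, which themselves differed. Its log2 fold change of 0.59 (SE 0.18, 95% interval 0.14 to 1.05) had an unadjusted p of 0.0201 and an adjusted p of 0.970 in edgeR's quasi-likelihood test, the largest fitted value among the chaperones. It was 0.36 without the first control library and 0.86 without the second.

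The cytosolic J proteins are the entry gate for clients of HSP70. DNAJA1 was at 55.9 and 54.2 FPKM in DMSO and at 55.6 and 56.1 FPKM with SF1-8 (log2 fold change 0.047, SE 0.066), and DNAJA2 lay between 12.9 and 14.3 FPKM (-0.026, SE 0.077). DNAJB1, the inducible partner of the inducible HSP70s, was at 23.5 and 25.3 FPKM in DMSO and at 24.1 and 19.7 FPKM with SF1-8. The first treated library lay between the controls and the other below both (-0.13, SE 0.13, 95% interval -0.46 to 0.20). DNAJB6, which suppresses the aggregation of polyglutamine proteins, was at 7.10 and 7.22 FPKM in DMSO and at 7.64 and 8.42 FPKM with SF1-8, without overlap (0.19, SE 0.085, unadjusted p 0.071 and adjusted p 0.970 in edgeR's quasi-likelihood test). DNAJB13, a gene of sperm flagella and cilia, had a log2 fold change of -0.58 (SE 0.79) at or below 0.090 FPKM.

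The DNAJC proteins bring HSP70 to particular places. DNAJC21 (chr5:34929559-34958964), which takes part in the maturation of the large ribosomal subunit, was at 5.35 and 4.98 FPKM in DMSO and at 4.16 and 4.17 FPKM with SF1-8. Both treated libraries were below both controls and close to each other. Its log2 fold change of -0.28 (SE 0.077, 95% interval -0.48 to -0.087) had an unadjusted p of 0.0137 and an adjusted p of 0.970 in edgeR's quasi-likelihood test.

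The J proteins of the spliceosome, the machine whose assembly U2AF1 takes part in, gave no call. DNAJC8 was at 32.2 and 27.9 FPKM in DMSO and at 30.6 and 31.0 FPKM with SF1-8, with both treated libraries between the controls (log2 fold change 0.065, SE 0.080). DNAJC17 was at 1.81 and 1.65 FPKM in DMSO and at 1.55 and 1.30 FPKM with SF1-8. The treated libraries were the lower ones, but the difference of -0.25 (SE 0.16, 95% interval -0.65 to 0.15) did not pass the test (unadjusted p 0.175).

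The J proteins of vesicles were likewise close between groups. DNAJC6 (auxilin), which recruits HSPA8 to clathrin-coated vesicles, shared its entry with RNU2-15P. That entry lay between 7.75 and 8.06 FPKM in all libraries (log2 fold change 0.015, SE 0.073, 95% interval -0.17 to 0.20). DNAJC13, a J protein of endosomes, lay between 4.69 and 4.85 FPKM (0.049, SE 0.089). DNAJC5, the cysteine string protein of secretory vesicles, lay between 11.6 and 12.9 FPKM (0.063, SE 0.098). DNAJC9, a histone cochaperone that was picked after its values were seen, was at 16.1 and 10.7 FPKM in DMSO and at 15.3 and 15.5 FPKM with SF1-8, so that the second control library alone was low. Its log2 fold change of 0.24 (SE 0.17) was 0.0054 without that library and 0.52 without the first control library.

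**Figure D4:**
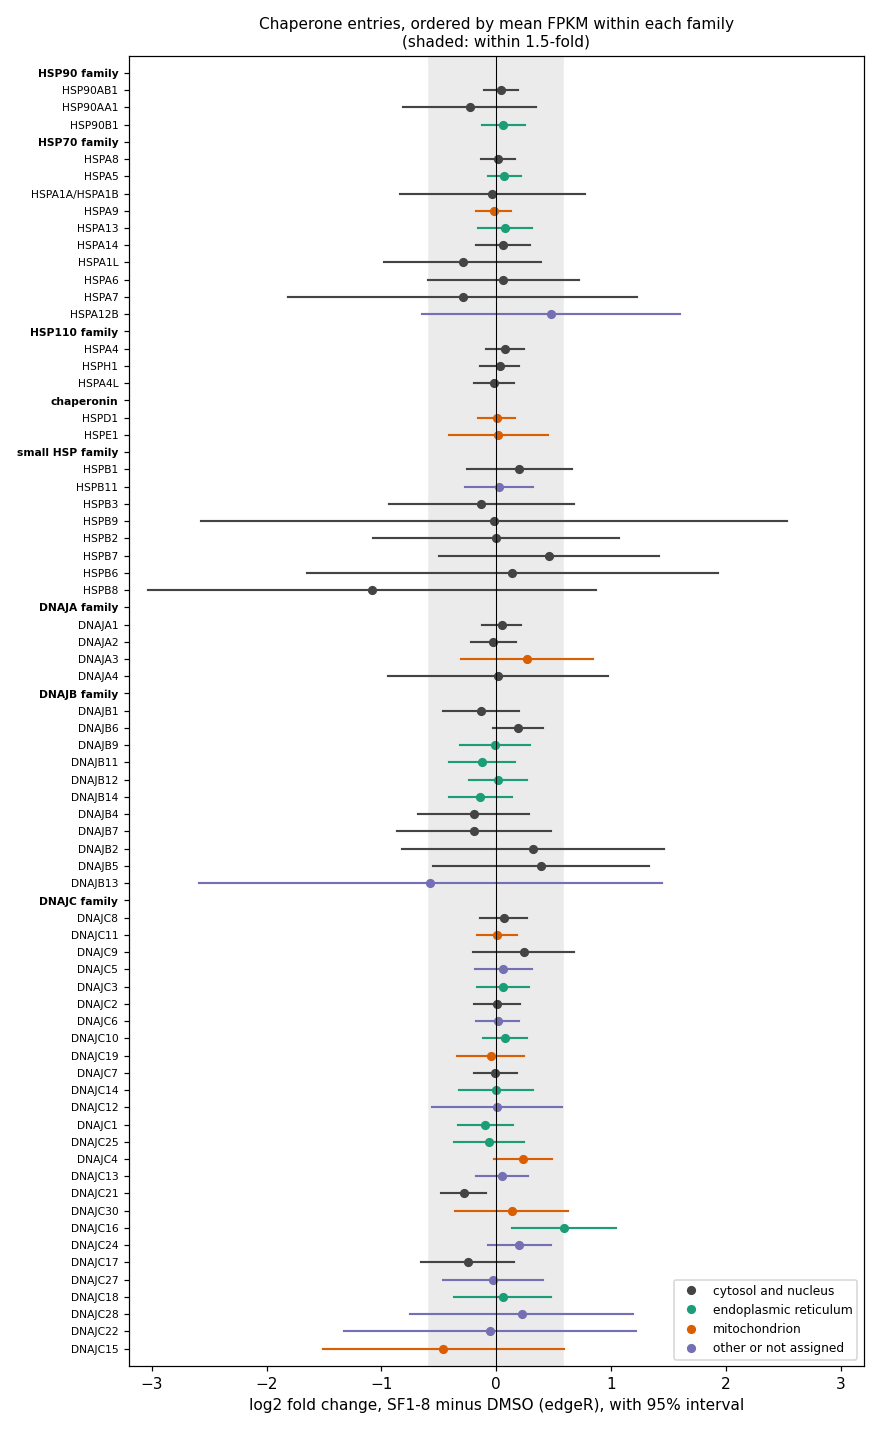
Log2 fold change, SF1-8 minus DMSO, with its 95% interval from edgeR (x axis) for the 67 tested chaperone entries, by family and within it by falling mean FPKM (rows), coloured by compartment, with the range within 1.5-fold shaded. The intervals of DNAJC16 and DNAJC21 leave out 0. Entries with a mean under 1 FPKM have wide intervals (median SE 0.41, against 0.12 over all 67). In HSP90 the widest interval is that of HSP90AA1 and not of the bottom row.

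By family, the median log2 fold change was 0.043 for HSP90 (3 entries), 0.036 for HSP70 (10), 0.031 for HSP110 (3), 0.011 for the chaperonin (2) and 0.012 for the small heat shock proteins (8). It was 0.032 for DNAJA (4), -0.12 for DNAJB (11) and 0.011 for DNAJC (26). The DNAJB median was the farthest from 0 in this fit, with 4 values above and 7 below, and 0 of its entries passed even the unadjusted threshold. Without any 1 library DNAJB lost that rank, with medians of -0.018 (without DMSO 1), -0.091 (DMSO 2), -0.10 (SF1-8 1) and -0.025 (SF1-8 2). The small heat shock proteins were then farthest (0.20, -0.19 and -0.16 without DMSO 1, DMSO 2 and SF1-8 2), or the chaperonin (0.13 without SF1-8 1). By compartment, the median was 0.0077 for the cytosol and nucleus (33 entries), 0.035 for the ER (14), 0.0056 for the mitochondrion (9) and 0.024 for the entries of other or no assigned place (11).

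The proportions between the partners were as follows. HSP70 without the shared HSPA1A and HSPA1B entry summed to 1.54 and 1.60 times the FPKM of all J-domain proteins in DMSO and to 1.59 and 1.51 times with SF1-8, so the groups overlapped. The ratio of HSPA8 to HSPA5 in FPKM was 2.8139 and 2.8570 in DMSO and 2.8134 and 2.6426 with SF1-8, so that both treated values lay below both controls, the nearest ones barely. No test was run on these ratios, since with 2 libraries against 2 an exact permutation test cannot give a two-sided p below 0.333.

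Around the chaperones, 72 other genes of the pathway were read from a list, and 0 passed the adjusted threshold of edgeR's quasi-likelihood test, while 3 (4.17%) passed the unadjusted one, against 4.33% of all tested entries. Their median log2 fold change was 0.040, with 48 values above 0 and 24 below, beside 12657 and 13510 of all tested entries. No split by sign was computed for entries at the level of this list. An interval inside 1.5-fold was found for 62 (86.1%). The share was 30.7% of all tested entries, of which most are less abundant, and 81.2% of those with a mean of at least 5 FPKM. HSF1, the heat shock factor that drives the inducible members, was at 11.3 and 10.6 FPKM in DMSO and at 8.22 and 7.98 FPKM with SF1-8. Both treated libraries were below both controls, with a log2 fold change of -0.41 (SE 0.080, 95% interval -0.61 to -0.20), an unadjusted p of 0.0035 and an adjusted p of 0.740 in edgeR's quasi-likelihood test. HSF2, a related factor, was at 4.66 and 4.97 FPKM in DMSO and at 5.17 and 5.25 FPKM with SF1-8 (0.14, SE 0.13). These are totals over its isoforms, whose pattern the paper reports as changed. Of the 9 entries on the list of cytosolic heat shock genes, 0 passed the unadjusted threshold. The interval lay inside 1.5-fold for 5 of them (HSP90AB1, HSPA8, HSPH1, DNAJA1 and DNAJB1) and not for the other 4 (HSP90AA1, the HSPA1A and HSPA1B entry, HSPB1 and HSPA6), whose difference between the groups was thus less closely bounded.

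The other pathway genes named here were picked after their values were seen. DDIT3, a transcription factor of the late ER stress response, was at 15.6 and 13.2 FPKM in DMSO and at 8.54 and 10.4 FPKM with SF1-8, below the controls in both treated libraries (log2 fold change -0.58, SE 0.15, unadjusted p 0.0101). FKBP8, an HSP90 cochaperone of the mitochondrial surface, was at 29.5 and 30.2 FPKM in DMSO and at 38.2 and 33.9 FPKM with SF1-8, above the controls in both (0.30, SE 0.097, unadjusted p 0.0260). Both had an adjusted p of 0.970 in edgeR's quasi-likelihood test. PTGES3, the HSP90 cochaperone p23, was at 159 FPKM in DMSO 1 and between 60.3 and 63.6 FPKM in the other libraries. CANX, a lectin chaperone of the ER, was at 90.8 FPKM in SF1-8 1 and between 138 and 155 FPKM in the others.

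The groups of that list had medians near 0, beside single larger values such as those of HSF1, DDIT3 and PTGES3. All 8 CCT chaperonin subunits, which fold actin and tubulin, had an interval inside 1.5-fold, with log2 fold changes between -0.081 and 0.080. The 6 prefoldin subunits that feed them lay between -0.21 and 0.16. The 11 exchange factors had a median of 0.042, and HYOU1, the ER exchange factor for HSPA5, was at 24.4 and 24.5 FPKM in DMSO and at 26.8 and 27.2 FPKM with SF1-8 (0.17, SE 0.068, unadjusted p 0.053). The 14 genes of the ER response had a median of 0.034, and the 8 mitochondrial chaperones and proteases one of 0.017. The 17 HSP70 and HSP90 cochaperones had 14 values above 0 and 3 below, beside 12657 and 13510 of all tested entries. Their median was 0.10, and 1 of the 17 passed the unadjusted threshold, beside 4.33% of all tested entries. Most tested entries are less abundant, and no split by sign was computed at the level of these cochaperones. FKBP4 and CACYBP, picked after their values were seen, were low in DMSO 2 alone. FKBP4 was at 36.7 FPKM in DMSO 1 and 23.2 FPKM in DMSO 2, and CACYBP at 29.0 and 18.9 FPKM.

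**Figure D5:**
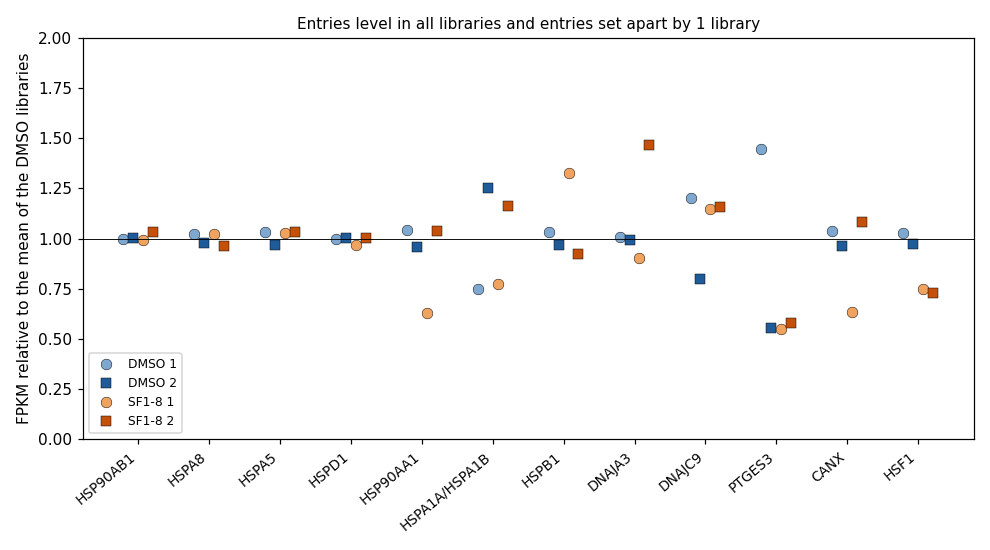
FPKM in each library relative to the mean of the DMSO libraries (y axis) for 12 entries (x axis), with DMSO in blue, SF1-8 in orange, circles for replicate 1 and squares for replicate 2. HSP90AB1, HSPA8, HSPA5 and HSPD1 stay between 0.960 and 1.03, single libraries set HSP90AA1 (0.631 in SF1-8 1), HSPB1 (1.33 in SF1-8 1), DNAJA3 (1.46 in SF1-8 2) and PTGES3 (1.45 in DMSO 1) apart, and both treated libraries of HSF1 lie at 0.750 and 0.728.

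Libraries of one group could differ more than the groups did. Of the 38 chaperone entries with a mean FPKM of at least 5, 3 differed by at least 1.4-fold between the DMSO libraries (DNAJC9, DNAJC12 and the HSPA1A and HSPA1B entry) and 4 between the SF1-8 libraries (DNAJA3, HSP90AA1, HSPB1 and the HSPA1A and HSPA1B entry). DNAJC12 was named after its values were seen. Among the 176 entries of the whole table with a mean of at least 100 FPKM, 33 did so between the DMSO libraries and 9 between the SF1-8 libraries. That level is not the one used for the chaperones, so the counts cannot be compared as shares. Of these chaperones, DNAJC12 alone had an interval inside 1.5-fold (-0.56 to 0.57 on the log2 scale), and for the others smaller differences were not detectable with 2 libraries a group.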

How the data were processed

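RNA-seq of K562-U2AF1_S34F cells was read from 1 table with 4 libraries, 2 from DMSO and 2 from SF1-8 (30 μM, 48 h), grouped by the sample labels. The submitters' processing notes name cutadapt, FastQC, Bowtie2, HISAT2, StringTie and hg38, with no versions or roles. The authors deposited an FPKM value per entry and library, normalized for length and depth, with 0.0001 standing for 0. The deposited counts, all whole, were treated as unnormalized estimated counts. Since 4 was their commonest value above 0 and 8 the next, a count does not stand for 1 read, so no counting error was computed and counts divided by 4 were an alternative. The 2095 entries that name no gene (0.372% of the counts) entered neither library sizes nor tests, 37 mitochondrially encoded entries held 0 counts, and between 11.0% and 14.0% of the counts of a library lay on ribosomal RNA entries. An entry may merge neighbouring genes, which was so for 16 of the 72 chaperone genes. Among them were DNAJB11, DNAJC6, DNAJC9, DNAJC10, HSPA8, HSPA9 and HSP90B1. The same held for some pathway genes, such as DDIT3.

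The comparison was fitted with edgeR 4.0.16 (quasi-likelihood test, TMM factors, filterByExpr) in R 4.3.3 on all 4 libraries with the group as the one term, and p-values were adjusted by Benjamini-Hochberg over 26167 entries. SE and 95% intervals were taken from the F statistic and its degrees of freedom. The fit was tried on simulated counts with known changes, which were much larger than 1.5-fold and left out the lowest entries. That trial does not bear on the 1.5-fold intervals or on low entries. DESeq2 1.42.0, limma 3.58.1 with trend on log2(FPKM + 1) and log2(FPKM + 0.1) for entries of at least 1 FPKM in at least 2 libraries, no filter, upper-quartile factors, the replicate number as a block, and leaving out each library in turn were alternatives. Promoter sequences are from RefSeq (GRCh38.p14).

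The members, their families and compartments, and the list of pathway genes were chosen with earlier results of these data known. Genes were named if they passed an adjusted or unadjusted p of 0.05, were among the 3 largest values in either direction or the 2 most abundant of a family, or belonged to a list of inducible, ER, mitochondrial, splicing and vesicle members with HSF1 and HSF2. The 1.5-fold bound for intervals, the level of 5 FPKM and the 1.4-fold bound between libraries were set after the data had been seen.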

Additional observations from a re-analysis of the deposited data

How the results depend on the processing

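Under all 12 alternatives 0 chaperone entries were called. Over all entries 11 were called in the fit reported, 163 by DESeq2, 31 without the filter on low counts, 1 by limma on log2(FPKM + 1), 0 by limma on log2(FPKM + 0.1) and 0 by limma without a filter, and between 0 and 20 when 1 library was left out, where the lone library of a group is assumed to vary like the other group. The median log2 fold change of the chaperone entries (0.015) was 0.0023 with counts divided by 4, -0.011 and -0.012 by limma with a pseudocount of 1 and 0.1, -0.0068 by limma without a filter, -0.00077 with upper-quartile factors, and 0.0069 to 0.026 without single libraries. The family or compartment median farthest from 0 (-0.12) was -0.059 without the filter, -0.037 by limma without a filter, and -0.19 to 0.20 without single libraries. In the first 3 of these it was the DNAJB median, and without single libraries that of the small heat shock proteins or the chaperonin, while DNAJB ran from -0.10 to -0.018. The chaperones under an unadjusted p of 0.05 (2) numbered 1 to 3 without single libraries. The pathway genes called numbered 0 to 1, and the 1 was PTGES3 without DMSO 2 (log2 fold change -1.29, adjusted p 0.0492 in edgeR's quasi-likelihood test), while its log2 fold change was 0.0082 without DMSO 1. The cause of these shifts was not tested.

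Of 466 refitted values of 40 named genes, 422 kept their sign and none passed the adjusted threshold. HSF1 stayed between -0.43 and -0.38, with an unadjusted p of at most 0.0269 under all 12 alternatives and an adjusted p of 0.0982 (DESeq2) to 0.999. DNAJC16 stayed between 0.36 and 0.86 and DNAJC21 between -0.30 and -0.26, with an unadjusted p under 0.05 in 11 and 10 of the 12. Of the low genes that kept their sign, without single libraries HSPA12B ran from 0.071 to 1.06, HSPB7 from 0.23 to 0.75, HSPB8 from -2.09 to -0.49, DNAJB13 from -0.93 to -0.29 and DNAJC15 from -0.77 to -0.13.

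The other 44 values turned sign. With counts divided by 4, DNAJC11 was -0.0069 and HSPD1 -0.0088. With upper-quartile factors, DNAJC11 was -0.010, HSPD1 -0.012, HSPA8 -0.0013 and DNAJC6 -0.00077. By limma with a pseudocount of 1, with or without the filter, DNAJC11 was -0.021, DNAJC6 -0.011, HSPA8 -0.014, HSPD1 -0.023 and HSPE1 -0.021. With a pseudocount of 0.1 they were -0.021, -0.012, -0.014, -0.023 and -0.023 in the same order. Without single libraries the values ran from -0.060 to 0.0080 for DNAJA2, -0.11 to 0.57 for DNAJA3, -0.29 to 0.0082 for DNAJB1, -0.091 to 0.067 for DNAJB9, -0.010 to 0.021 for DNAJC11, -0.014 to 0.11 for DNAJC13, -0.12 to 0.028 for DNAJC19, -0.0040 to 0.12 for DNAJC3, -0.049 to 0.18 for DNAJC5, -0.63 to 0.078 for HSP90AA1, -0.39 to 0.43 for the HSPA1A and HSPA1B entry, -0.0081 to 0.13 for HSPA6, -0.036 to 0.064 for HSPA8, -0.047 to 0.0031 for HSPA9, -0.091 to 0.44 for HSPB1, -0.092 to 0.15 for HSPB11, -0.041 to 0.049 for HSPD1 and -0.23 to 0.23 for HSPE1.

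The replicate numbers in the labels are not said to pair the libraries, and the deviations of the replicate 1 libraries from their group means correlated at -0.028 over 13344 entries, so the numbers are not taken as pairs. With the replicate number as a block, 0 entries were called in all, and the chaperone median was 0.014. The HSPA1A and HSPA1B entry was then at -0.0041 (SE 0.087).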

Other observations

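Entries named as pseudogenes of the chaperones carried few counts beside their parents. The 17 HSPA8 pseudogene entries held 0.312% of the parent's counts, the 6 of HSP90AB1 0.542%, the 4 of HSP90AA1 1.49%, the 18 of HSPD1 2.86%, the 8 of DNAJB6 6.41% and the 27 of HSPE1 6.51%. The HSP90AA1 pseudogene entries held 940 and 1448 estimated counts in DMSO and 1386 and 1487 with SF1-8. HSPA7, a near copy of HSPA6 that the name rule also takes in, was at 0.315 and 0.995 FPKM in DMSO and at 0.623 and 0.454 FPKM with SF1-8, and how the counting divided fragments between the copies is not given in the sources used here.

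GRPEL2, an exchange factor of the mitochondrial HSP70, was at 13.2 and 4.09 FPKM in DMSO and at 9.71 and 4.76 FPKM with SF1-8, and thus high in both libraries of replicate 1, whereas the HSPA1A and HSPA1B entry was low in both. These entries were picked after their values were seen.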
